A study of Bos indicus x Bos taurus with 45 samples.

Results

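The miRNAs described here are miR-199 and miR-214, taken as every entry of 4 deposited count tables whose name is miR-199a, miR-199b, miR-199c or miR-214, on either arm of the hairpin. The rule found 6 entries in each tissue table, of 603 miRNA names listed in any of the tables: bta-miR-199a-3p, bta-miR-199a-5p, bta-miR-199b, bta-miR-199c, bta-miR-214 and bta-miR-214-5p, written below without the species prefix bta. Small RNA sequencing was done on kidney, liver, skeletal muscle and tongue of bovine fetuses (Bos indicus x Bos taurus) at about day 105 of gestation, in 45 libraries. Control fetuses were conceived by artificial insemination and labelled healthy (kidney 4, liver 5, muscle 4, tongue 9). Fetuses with large offspring syndrome (LOS), an overgrowth condition of ruminants, were conceived by assisted reproduction (ART; kidney 4, liver 4, muscle 4, tongue 7). Healthy ART fetuses were sequenced in liver alone (4). LOS and control fetuses thus differ in both conception method and overgrowth, and in kidney, muscle and tongue the effects of these cannot be told apart. The sex of the fetus is labelled for tongue only, where both groups hold females and males.

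miRNAs are short RNAs cut from hairpin precursors. The 5p and 3p arms of a hairpin can each be loaded into an Argonaute protein, which they guide to repress messenger RNAs. In mammals a copy of miR-199a and miR-214 are transcribed together from a long noncoding RNA antisense to an intron of a dynamin gene, DNM3, and miR-199b lies antisense within another dynamin gene, DNM1. They are known from mesenchyme, fibroblasts, developing skeleton and fibrosis, and the transcription factor TWIST1 is a known activator of the miR-199a and miR-214 transcript. The mature sequences of the miR-199 copies are nearly the same, so reads of one can be counted for another. The tables give the precursor of both miR-199a arms as mixed, and those of the other 4 entries as 1 hairpin each. The names miR-199b and miR-199c carry no arm.

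Reads on listed miRNAs ranged from 3379816 in liver to 13822348 in tongue, and LOS and control ranges of depth overlapped in every tissue. The tissue labels were set against marker miRNAs. The skeletal muscle list held miR-1, miR-133a, miR-133b, miR-206, miR-208a, miR-208b and miR-499. In muscle and tongue it summed to 16025 to 24850.2 CPM (a library's listed reads scaled to a common total). There 6 of its 7 names were listed. In kidney and liver, where 1 and 3 of the 7 names were listed, it summed to at most 209 CPM. The hepatocyte list (miR-122, miR-885, miR-192 and miR-194) summed to 75813 CPM or more in liver and to 20461 to 25073 CPM in kidney. In tongue it summed to 1700 to 7254 CPM in controls and 1506 to 1964 CPM in LOS. The kidney and gut epithelium list (miR-192, miR-194, miR-215 and miR-204) shares miR-192 and miR-194 with it, so the sums of these lists are not independent. This list summed to 21459 to 26295 CPM in kidney and 61360 to 82808 CPM in liver, so it did not mark kidney. No library was left out.

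All 6 entries had the same order of tissues: lowest in liver, then kidney, then skeletal muscle, and highest in tongue. Together they made up 0.410% ± 0.102 (SD, n = 13) of listed reads in liver, 1.09% ± 0.0959 (n = 8) in kidney, 1.61% ± 0.141 (n = 8) in muscle and 3.32% ± 0.267 (n = 16) in tongue, over all groups. bta-miR-199a-3p, the most abundant of them, stood at 2691 ± 735 CPM in liver, 7687 ± 667 CPM in kidney, 10890.0 ± 937 CPM in muscle and 22834 ± 1779 CPM in tongue. In tongue it ranked between place 9 and place 15 of 460 miRNAs in every library. Bulk tissue was sequenced, so fewer cells of a type and less RNA per cell cannot be told apart.

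**Figure D1:**
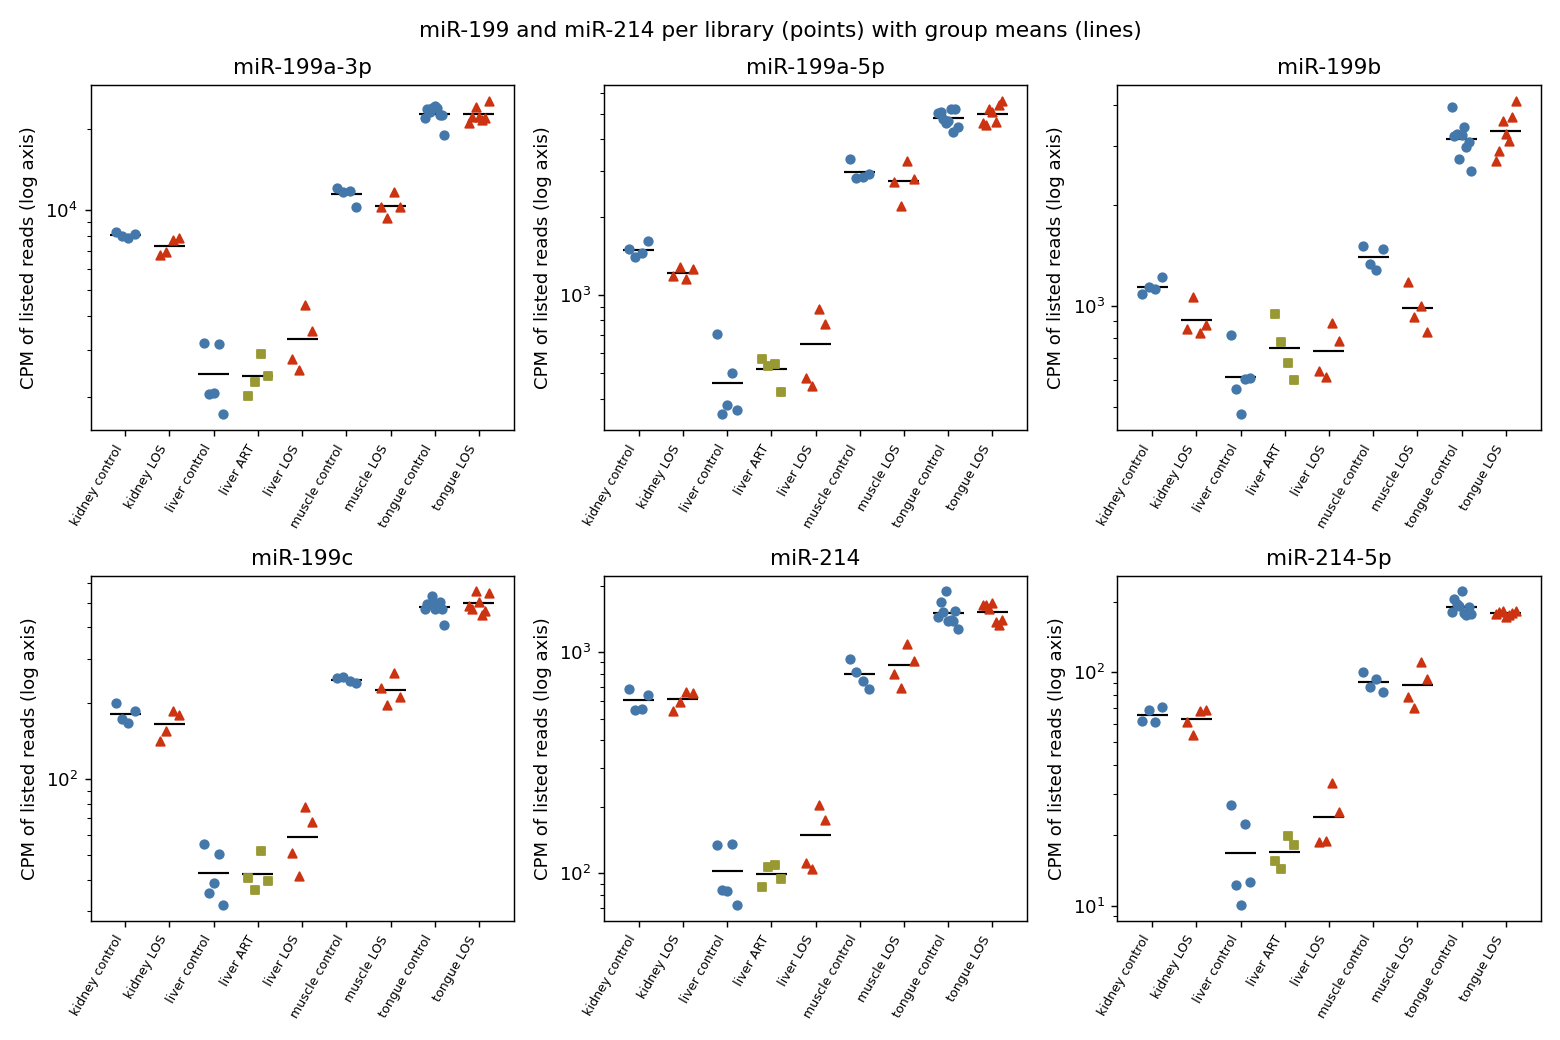
Level of each of the 6 entries, 1 panel each, in CPM of listed reads after scaling by trimmed-mean (TMM) factors, on a log axis; each point is a library, horizontal lines are group means, circles are controls, squares ART and triangles LOS. Liver is lowest and tongue highest in all 6 panels, and within a tissue the groups overlap in most panels; the kidney panels of miR-199a-3p, miR-199a-5p and miR-199b and the muscle panel of miR-199b do not.

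bta-miR-199a-5p stood at 535 ± 164 CPM in liver, 1359 ± 171 CPM in kidney, 2873 ± 307 CPM in muscle and 4906 ± 486.3 CPM in tongue (SD over all libraries of the tissue, with n as above). bta-miR-199b spanned the narrowest range, with 693 ± 138 CPM in liver, 1025 ± 142.2 CPM in kidney, 1197 ± 263 CPM in muscle and 3253 ± 527 CPM in tongue. bta-miR-214 went from 116 ± 38.3 CPM in liver through 612 ± 74.4 CPM in kidney and 831 ± 112 CPM in muscle to 1508 ± 151 CPM in tongue. The 2 low entries kept the order. miR-199c was at 47.5 ± 13.3 CPM in liver and 488 ± 41.9 CPM in tongue, and miR-214-5p, the other arm of the miR-214 hairpin, at 19.1 ± 6.54 CPM in liver and 185 ± 12.3 CPM in tongue.

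The order was tested in control 1 to 4 of the 4 tissues (16 libraries) on the 374 miRNAs listed in all of them. Of the 36 tests (6 entries, 6 tissue pairs), 34 passed in edgeR's quasi-likelihood test at an adjusted p under 0.05. Most miRNAs differ between tissues: 86.6% of all passed between kidney and liver, 77.3% between kidney and muscle, 80.2% between kidney and tongue, 85.3% between liver and muscle, 85.3% between liver and tongue and 64.7% between muscle and tongue, so a pass alone is near the background. The sizes against liver were large. Between liver and tongue miR-214 differed by -4.29 ± 0.15 (log2, liver minus tongue, SE), in place 16 of 374 by size. On the same scale miR-199a-3p differed by -3.54 ± 0.13 and miR-199b by -2.80 ± 0.13, in places 30 and 53, where the median of all 374 was 0.14. Without scaling factors that median moved to 0.53 and the 3 differences to -3.90, -3.14 and -2.41. For kidney minus liver it moved from -0.24 to -1.08, with miR-214 going from 3.28 to 2.45 and miR-199b from 1.72 to 0.87. No sign turned among the 36 under RLE factors or without factors, where 33 and 36 passed in edgeR.

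Between the neighbours kidney and muscle, miR-199a-5p differed by -0.92 ± 0.13 (kidney minus muscle), miR-199a-3p by -0.44 ± 0.12 and miR-199c by -0.39 ± 0.10, and all 3 passed in edgeR. There miR-199b (-0.22 ± 0.12, adjusted p 0.125 in edgeR) and miR-214-5p (-0.40 ± 0.19, adjusted p 0.0685 in edgeR) did not pass. Without scaling factors both passed (adjusted p 0.0363 and 0.0314 in edgeR), where the median of all moved from -0.01 to -0.10. With LOS 1 to 4 in place of control 1 to 4, miR-214-5p passed (-0.32, adjusted p 0.0330 in edgeR) and the sign of miR-199b turned (0.034). miR-214 passed narrowly (-0.33 ± 0.13, adjusted p 0.0362 in edgeR). Its call was lost with RLE size factors (adjusted p 0.0605 in edgeR), without the fetus block (0.0539), without the 3 most abundant miRNAs (0.0614) and without control 1 (0.0894), control 2 (0.160) or control 3 (0.114). Between muscle and tongue all 6 entries were lower in muscle. Of these miR-199a-5p had the smallest difference (-0.35 ± 0.13, muscle minus tongue, adjusted p 0.0334 in edgeR), and its call was lost without control 2 (0.169), control 3 (0.101) or control 4 (0.0561), without the fetus block (0.0578) and without the 3 most abundant miRNAs (0.0551). Without scaling factors it was -0.70, where the median of all moved from -0.02 to -0.38.

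Ratios of read counts within a library need no scaling, though they compare reads and not molecules. There were 0.296 to 0.505 reads of miR-199b for each read of miR-199a-5p in muscle, 0.571 to 0.784 in tongue, 0.696 to 0.827 in kidney and 1.005 to 1.68 in liver. Liver was thus the tissue where miR-199b exceeded miR-199a-5p in every library (13 of 13), and the muscle and liver ranges overlapped no other tissue. miR-214 stood at 0.0377 to 0.0496 reads per read of miR-199a-3p in liver, below the ranges of kidney (0.0692 to 0.0857), muscle (0.0629 to 0.0930) and tongue (0.0548 to 0.0789). The ratio of the miR-199a arms (5p to 3p) was 0.236 to 0.287 in muscle, against 0.1499 to 0.199 in kidney, 0.159 to 0.281 in liver and 0.189 to 0.244 in tongue. These differences between tissues are descriptions and were not tested.

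**Figure D2:**
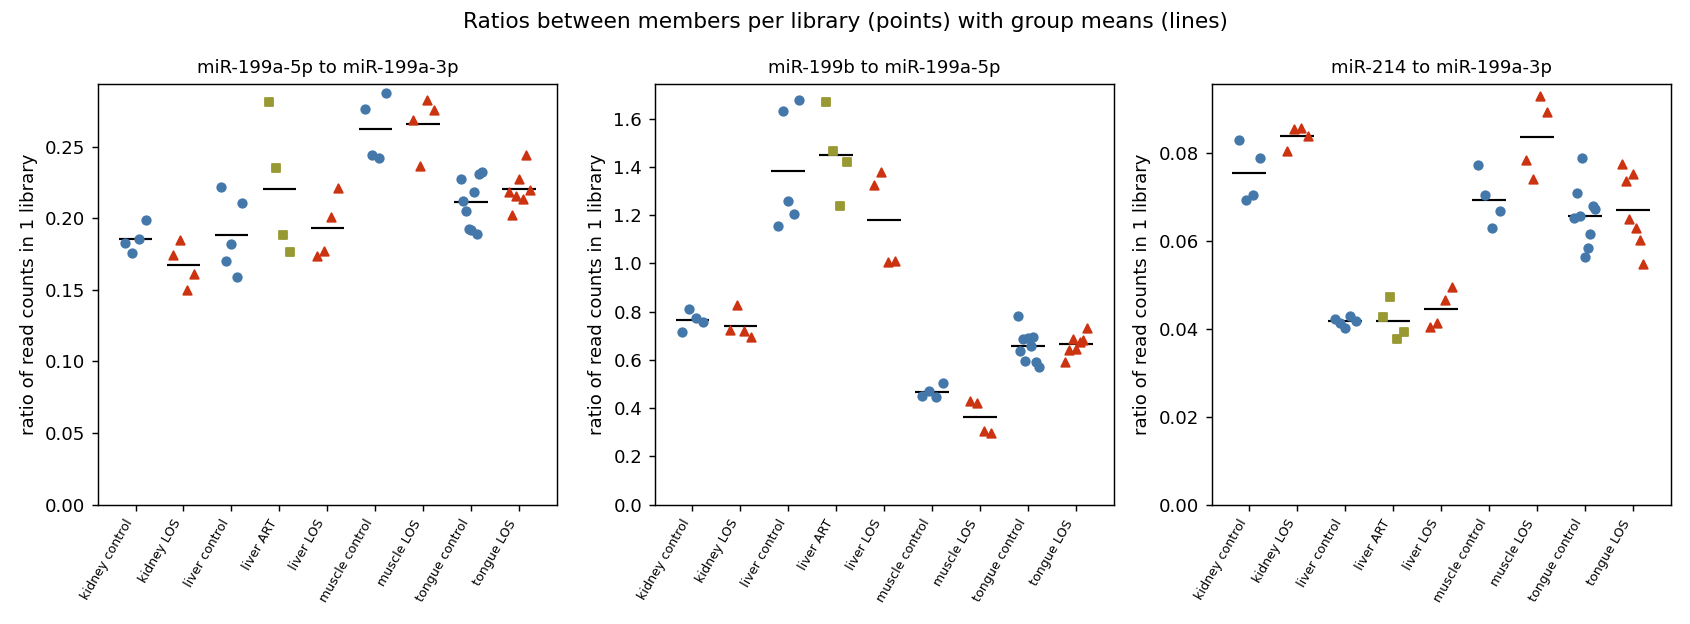
Ratio of read counts of 2 entries in the same library (linear axis from 0), by tissue and group; points are libraries, lines are group means, circles controls, squares ART and triangles LOS. The ratio of miR-199b to miR-199a-5p is above 1 in liver alone, and in muscle the 4 LOS points (0.296 to 0.432) lie under the 4 controls (0.448 to 0.505).

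The comparison of LOS with control fetuses asks which miRNAs differ in the overgrowth condition. For these 6 entries the sign of the difference varied by tissue. In LOS kidney and in LOS muscle 5 of 6 were lower. In LOS liver 6 of 6 were higher, and in LOS tongue 4 of 6. Of all miRNAs, 225 of 436 were higher in LOS kidney, 207 of 439 in muscle, 297 of 563 in liver and 251 of 460 in tongue. The 6 entries include arms of 1 hairpin and similar copies, so their signs are not independent. None of the 24 differences passed over all miRNAs of the tissue in edgeR. Values are CPM scaled by TMM factors, listed for fetus 1, 2, 3 and so on in turn, and each difference is LOS minus control on the log2 scale with its SE.

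**Figure D3:**
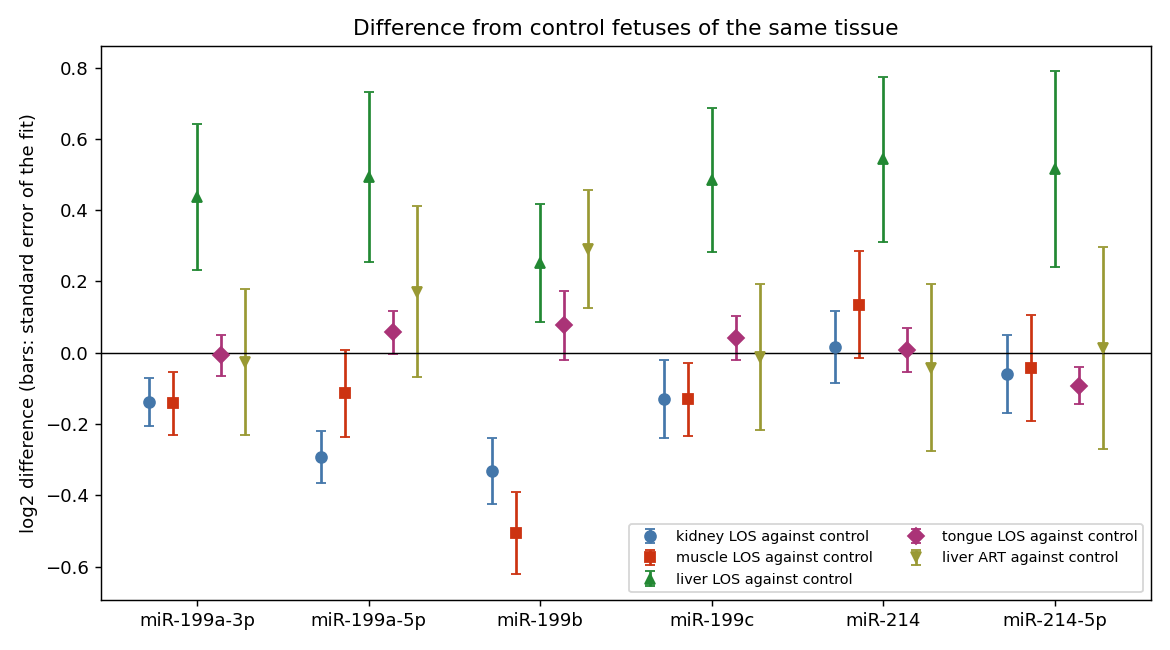
Log2 difference of LOS (and, in liver, of ART) from the controls of the same tissue for each of the 6 entries; points are the fitted differences and bars their standard errors. LOS liver lies above 0 for all 6, from 0.25 to 0.54, and miR-199b in LOS muscle has the lowest value, -0.51.

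In kidney 3 entries, miR-199a-5p, miR-199b and miR-199a-3p, had every LOS library below every control, and the other 3 overlapped. miR-199a-5p stood at 1512, 1401, 1456 and 1613 CPM in controls and at 1181, 1289.8, 1152 and 1260.1 CPM in LOS. Every LOS library lay below every control, a difference of -0.29 ± 0.07. miR-199b stood at 1085, 1137, 1125 and 1225 CPM in controls and at 857, 1067, 831 and 877 CPM in LOS. Again the groups did not overlap (-0.33 ± 0.09). miR-199a-3p, at 8262, 7966, 7844 and 8113 CPM in controls, was at 6764, 6972, 7687 and 7822 CPM in LOS, below every control but by little in LOS 3 and 4 (-0.14 ± 0.07). Groups did not overlap in 3 of the 6 entries, against 4.36% of all 436 kidney miRNAs. In CPM without TMM factors, an alternative added after the data were seen, miR-199a-3p overlapped and the count was 2 of 6, against 4.59% of all. miR-199c differed by -0.13 ± 0.11 and miR-214-5p by -0.06 ± 0.11, and whether the miR-199 and miR-214 entries differ from each other was not tested. miR-214 was at 685, 551, 552 and 639 CPM in controls and 545, 596, 659 and 656 CPM in LOS, fully overlapping, with a difference of 0.02 ± 0.10 whose sign turned without control 2 (-0.04), control 3 (-0.03), LOS 3 (-0.02) or LOS 4 (-0.02).

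In edgeR's quasi-likelihood test 0 of 436 kidney miRNAs passed (0%), and so 0 of the 6. At an unadjusted p under 0.05 stood 2 of the 6, miR-199a-5p and miR-199b, and 7.57% of all. By that p they held places 2 and 3 in kidney, both with an adjusted p of 0.347 in edgeR. DESeq2 called 1 of the 6, miR-199a-5p (-0.29, adjusted p 0.0396), among 3 calls in kidney, and limma-voom 0. The smooth muscle markers miR-143 and miR-145 (2 of 2 names, 4 entries) summed to 37884 to 60082 CPM in control and 38457 to 42546 CPM in LOS kidney. The kidney and gut epithelium list (4 of 4) summed to 21549 to 25394 and 21459 to 26295 CPM in the same order. Their part in the result was not tested.

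In skeletal muscle miR-199b stood apart from the other entries in size. It was at 1509, 1335, 1278 and 1485 CPM in controls and at 1182, 928, 1003 and 835 CPM in LOS. The 4 LOS libraries lay below every control, a difference of -0.51 ± 0.12. This was the only one of the 6 whose groups did not overlap, against 8.88% of all 439 muscle miRNAs. miR-199a-5p overlapped, with 3341, 2832, 2854 and 2939 CPM in controls and 2739.6, 2199.5, 3303 and 2816 CPM in LOS (-0.11 ± 0.12). LOS 3 was the high library there, second to control 1. miR-199a-3p (-0.14 ± 0.09) and miR-199c (-0.13 ± 0.10) had 3 of 4 LOS libraries under every control, and LOS 3 again was the exception. miR-214 was at 934, 819, 742 and 685 CPM in controls and 799.5, 691, 1087 and 915 CPM in LOS (0.13 ± 0.15), and miR-214-5p differed by -0.04 ± 0.15. Without LOS 3 the muscle difference of miR-214 was 0.01 and that of miR-199a-5p -0.21. Without LOS 2 they were 0.23 and -0.02.

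edgeR's quasi-likelihood test called 0 of 439 muscle miRNAs (0%), and miR-199b, in place 4 by p, had an adjusted p of 0.180. At an unadjusted p under 0.05 stood 1 of the 6 and 13.2% of all. DESeq2 called miR-199b (-0.49, adjusted p 0.0102) as 1 of 10 calls in muscle, and limma-voom called 0. Leaving out single libraries kept the edgeR adjusted p of miR-199b between 0.0540 and 0.346. Endothelial markers (miR-126 and miR-139, 2 of 2) summed to 8687 to 9672 CPM in control and 9462 to 12913 CPM in LOS muscle. In the same order the skeletal muscle list (6 of 7, miR-208a not listed) summed to 19064 to 22131 and 18385 to 21930.4 CPM. The smooth muscle markers (2 of 2 names) summed to 24540 to 28424 CPM in control and 23345 to 37085 CPM in LOS muscle. Their part in the result was not tested.

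In liver all 6 entries were higher in LOS, and the spread between fetuses was wide. miR-199a-3p stood at 3192, 2044, 2075, 3164 and 1723 CPM in controls, 2773, 2521, 4395 and 3515 CPM in LOS, and 2023, 2268, 2899 and 2401 CPM in ART. LOS 3 and 4 exceeded every control, while LOS 1 and 2 lay among them (0.44 ± 0.20). miR-214 had the same order of libraries at the top: 135, 84.5, 83.2, 136 and 71.9 CPM in controls and 112, 104, 204.6 and 174 CPM in LOS (0.54 ± 0.23). miR-199a-5p was at 708, 348, 377, 502.8 and 362 CPM in controls and 482, 446, 883 and 778 CPM in LOS (0.49 ± 0.24). Among controls it was highest in control 1, as were miR-199b and miR-199c. miR-199c differed by 0.48 ± 0.20, miR-214-5p by 0.52 ± 0.28 and miR-199b, the least, by 0.25 ± 0.17. The groups overlapped in all 6, while they did not in 4.44% of all liver miRNAs.

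edgeR's quasi-likelihood test called 1.24% of the 563 liver miRNAs between LOS and control and 0 of the 6, whose adjusted p lay between 0.342 and 0.512. At an unadjusted p under 0.05 stood 2 of the 6 (miR-199c and miR-214) and 14% of all miRNAs. DESeq2 and limma-voom called 0 of the 6, where they called 20 and 7 of all 563. Without LOS 3 all 6 differences were at their lowest over the libraries left out: 0.15 for miR-199b, 0.27 for miR-199a-3p, 0.31 for miR-199a-5p, 0.31 for miR-214-5p, 0.33 for miR-199c and 0.35 for miR-214. Smooth muscle markers (2 of 2 names) summed to 56411 to 73183 CPM in control, 71193 to 82822 CPM in LOS and 63471 to 74655 CPM in ART liver. Hepatocyte markers (4 of 4) summed to 81828 to 95180.2, 75813 to 88182 and 91646 to 101970 CPM in the same order. Their part in the result was not tested.

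ART fetuses of normal phenotype, which share the conception method with LOS, were near the controls in 4 of the 6 entries. miR-199a-3p differed from controls by -0.03 ± 0.21, miR-199c by -0.01 ± 0.21, miR-214 by -0.04 ± 0.23 and miR-214-5p by 0.01 ± 0.28. miR-199a-5p differed by 0.17 ± 0.24. miR-199b differed by 0.29 ± 0.17, with 948, 783, 675 and 599.9 CPM in ART against 818, 567, 475, 605 and 608 CPM in controls, and 1 ART library exceeded every control. edgeR, DESeq2 and limma-voom each called 0 of the 6 between ART and control liver, with 0 at an unadjusted p under 0.05 in edgeR. Over all 563, edgeR called 0%, and 8.17% stood at that unadjusted p. DESeq2 called 6 of all 563 there and limma-voom 0.

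LOS was then set against ART in liver, in a comparison that shares the LOS libraries with the comparison against controls. miR-214 differed by 0.58 ± 0.25 (LOS minus ART), with ART at 86.5, 107, 109 and 94.1 CPM and 3 of 4 LOS libraries above all of these. miR-214-5p differed by 0.50 ± 0.29, miR-199c by 0.50 ± 0.21, miR-199a-3p by 0.46 ± 0.22, miR-199a-5p by 0.32 ± 0.25 and miR-199b by -0.04 ± 0.18. Without LOS 3 the difference was 0.14 for miR-199a-5p, 0.29 for miR-199a-3p, 0.30 for miR-214-5p and 0.39 for miR-214. 0 of the 6 passed in edgeR (lowest adjusted p 0.268, for miR-214), where 2.66% of all liver miRNAs did, with 2 of the 6 and 15.5% of all at an unadjusted p under 0.05. DESeq2 and limma-voom called 0 of the 6, where they called 27 and 15 of all 563.

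In tongue, with the most fetuses and the deepest libraries, the groups overlapped in all 6 entries, as they did in every other miRNA (0% apart). miR-199a-3p had a lowest, median and highest value of 19070.1, 23228 and 24512 CPM in 9 controls and 21143, 22262 and 25579 CPM in 7 LOS fetuses, a difference of -0.01 ± 0.06. miR-199a-5p had 4273, 4758 and 5230.3 CPM in controls and 4510.0, 5068 and 5620.1 CPM in LOS (0.06 ± 0.06). miR-199b had 2532, 3229 and 3941 CPM in controls and 2722, 3273 and 4111 CPM in LOS (0.08 ± 0.10). Within females it differed by -0.07 and within males by 0.26, and the difference between the sexes was not tested. miR-199c differed by 0.04 ± 0.06, miR-214 by 0.01 ± 0.06 and miR-214-5p by -0.09 ± 0.05. edgeR, fitted with a term for sex, called 0% of 460 miRNAs and 0 of the 6, with 0 of the 6 and 5.43% of all at an unadjusted p under 0.05. DESeq2 and limma-voom each called 0 of the 6 and 0 of all 460.

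Opposite signs in 2 tissues do not show that the effects differ, so the difference itself was tested. The entries had been proposed for LOS effects of opposite sign in these data, so the p-values of this test are not independent of that choice. The fit used control 1 to 4 and LOS 1 to 4 of kidney, liver and muscle (24 libraries, 389 miRNAs listed in these 3 tables), with the fetus as a block because the labels use the same fetus numbers in each tissue. Between liver and muscle the LOS effect on miR-199b differed by 0.79 ± 0.20 (log2, liver minus muscle, adjusted p 0.0438 in edgeR), in place 8 by p. It was the only one of the 6 that passed, where 2.31% of the 389 did. This call was lost without control 2 (adjusted p 0.141 in edgeR), control 3 (0.131), control 4 (0.135), LOS 3 (0.131) or LOS 4 (0.108), with the difference between 0.68 and 0.95 whichever fetus was left out. It was kept without LOS 2 (0.0252), where miR-199c passed as well (0.62, adjusted p 0.0449).

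The other entries had differences between liver and muscle of the same sign that did not pass in the whole set. They were 0.53 ± 0.16 for miR-199c (adjusted p 0.0768 in edgeR), 0.56 ± 0.23 for miR-199a-5p, 0.49 ± 0.18 for miR-199a-3p, 0.52 ± 0.27 for miR-214-5p and 0.32 ± 0.20 for miR-214. Between liver and kidney the differences ran from 0.35 ± 0.20 (miR-214) to 0.66 ± 0.23 (miR-199a-5p), and 0 of the 6 and 0% of the 389 passed in edgeR, with 4 of the 6 miR-199 and miR-214 entries and 9.77% of all at an unadjusted p under 0.05. Between muscle and kidney they ran from -0.23 ± 0.19 (miR-199b) to 0.10 ± 0.23 (miR-199a-5p), and 0 of the 6 and 0% of all passed in edgeR. The joint test over the 3 tissues called 0 of the 6 in edgeR (1.29% of all), with 4 of the 6 and 18.8% of all at an unadjusted p under 0.05. The lowest adjusted p was that of miR-199b, 0.0708. With tongue control 1 to 4 and LOS 1 to 4 added, the tongue effect on miR-214-5p differed from that in liver by -0.58 ± 0.26 (tongue minus liver) and that on miR-199a-3p by -0.42 ± 0.17. 0 of the 6 passed between tongue and any other tissue in that edgeR fit. Of all 374 miRNAs in it, 1 passed between tongue and liver, 0 between tongue and kidney and 0 between tongue and muscle.

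Ratios within a library were compared between the groups too. In muscle the number of miR-199b reads per miR-199a-5p read was 0.452, 0.471, 0.448 and 0.505 in controls and 0.432, 0.422, 0.304 and 0.296 in LOS. LOS lay below every control, by -0.39 on the log2 scale (exact permutation p 0.0286, two-sided, the smallest that 4 against 4 libraries can give). miR-214 per read of miR-199a-3p was higher in LOS muscle by 0.27 (exact permutation p 0.0571) and in LOS kidney by 0.16 (exact permutation p 0.0571), with 3 of 4 LOS libraries above every control in each. In liver the ratio of miR-199b to miR-199a-5p was 1.33, 1.38, 1.005 and 1.01 in LOS, with 2 of 4 under every control (-0.23, exact permutation p 0.206). Of 18 such tests (3 ratios, 6 comparisons) 0 passed after Benjamini-Hochberg adjustment, and the lowest adjusted p of the exact permutation tests was 0.343. With 4 against 5 libraries the smallest exact permutation p is 0.00794. Outside tongue a ratio alone at its smallest p could not pass over 18 tests, so there the 0 does not show that the ratios are alike.

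Whether the entries vary together between fetuses was measured as the correlation (Pearson's r, Spearman's rho) with miR-199a-3p of deviations from group means, in log2 CPM. Of 20 relations (5 entries, 4 tissues), 12 had an adjusted permutation p of r under 0.05. In CPM without TMM factors the count was 11, and by rho fewer passed than by r. No miRNA outside the family was tested in this way, so the count has no background share beside it. miR-214-5p had r = 0.902 in liver, 0.879 in muscle, 0.535 in tongue and 0.643 in kidney (adjusted permutation p 0.01235, 0.0139, 0.0447 and 0.271). miR-214 followed miR-199a-3p most closely in liver (r = 0.959, rho = 0.945, permutation p 0.00032 and 0.00038, adjusted 0.0036 and 0.0052, n = 13; r = 0.935 without the 2 libraries farthest out). It did so in muscle (r = 0.900, rho = 0.881, exact permutation p 0.0156 and 0.00694, adjusted 0.0313 and 0.0231, n = 8; 0.834 without 2) and in kidney (r = 0.807, rho = 0.809, exact permutation p 0.00694 and 0.0174, adjusted 0.0198 and 0.0417, n = 8; 0.744 without 2). In tongue the same relation was weak (r = 0.268, rho = 0.221, permutation p 0.293 and 0.400, adjusted 0.345 and 0.471, n = 16; 0.171 without 2). The values of 1 library share its total, and without TMM factors the muscle relation had r = 0.770 (adjusted p 0.0748 by exact permutation).

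**Figure D4:**
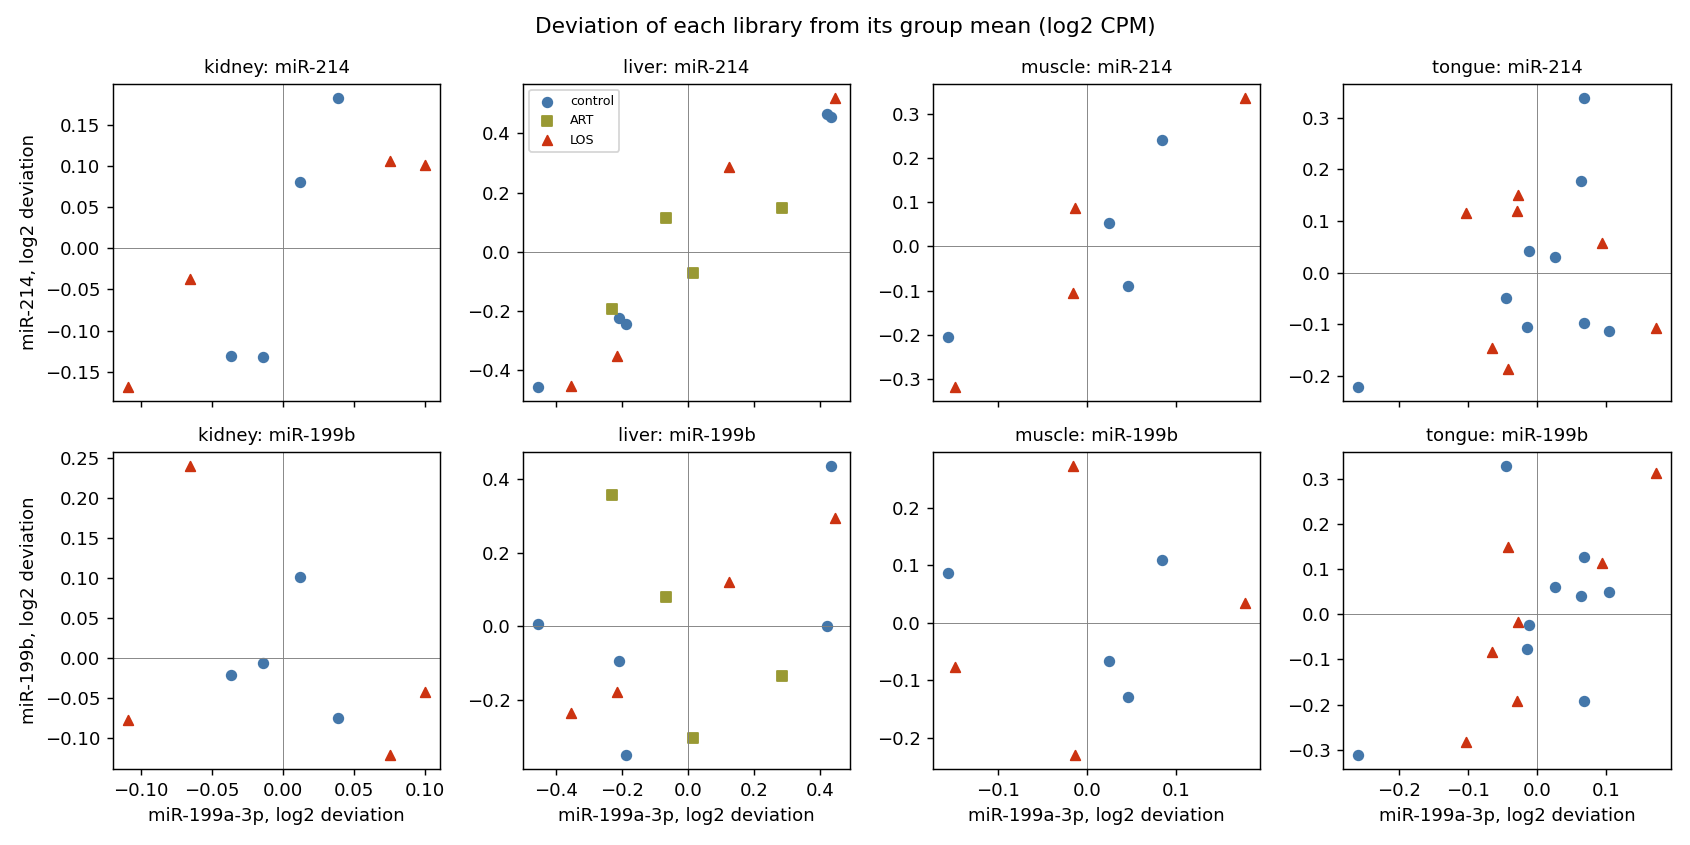
Deviation of each library from the mean of its group, in log2 CPM, for miR-199a-3p (horizontal axis) against miR-214 (top row) and miR-199b (bottom row) in the 4 tissues; circles are controls, squares ART and triangles LOS. miR-214 goes up with miR-199a-3p in kidney, liver and muscle (r = 0.807, 0.959 and 0.900), while miR-199b is scattered in these (r = -0.368, 0.433 and 0.036). In tongue the order is the other way, with r = 0.268 for miR-214 and 0.605 for miR-199b (0.272 without the 2 libraries farthest out).

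miR-199b followed miR-199a-3p loosely. Its r was -0.368 (rho = -0.310, exact permutation p 0.764 and 0.653, adjusted 0.830 and 0.725; -0.767 without the 2 farthest) in kidney. It was 0.036 (rho = -0.024, exact permutation p 0.934 and 0.977, both unchanged by adjustment; 0.156 without 2) in muscle, and 0.433 (rho = 0.330, permutation p 0.169 and 0.284, adjusted 0.225 and 0.355; 0.0543 without 2) in liver. In tongue it was 0.605 (rho = 0.444, permutation p 0.0210 and 0.0911, adjusted 0.0382 and 0.152). It was 0.272 without the 2 libraries farthest out, so the value on this scale depends on those 2, and 0.798 in CPM without TMM factors (adjusted permutation p 0.0023). miR-199c followed miR-199a-3p in every tissue, with r from 0.830 in tongue to 0.947 in liver, though in muscle its rho of 0.595 had an adjusted p of 0.199 by exact permutation. miR-199a-5p, the other arm, did so in liver (r = 0.817, rho = 0.797, permutation p 0.0124 and 0.0199, adjusted 0.0309 and 0.0417; 0.686 without 2), while in kidney r was 0.081 (rho = 0.071, exact permutation p 0.788 and 0.844, adjusted 0.830 and 0.888; -0.312 without 2). Without TMM factors the kidney r of miR-199a-5p was 0.467 (adjusted p 0.259 by exact permutation). Its tongue r went from 0.529 (adjusted permutation p 0.0666) to 0.685 (adjusted permutation p 0.00488). Whether miR-199b and miR-214 differ in this was not tested.

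Across all 45 libraries and the 374 miRNAs listed in every tissue, the miRNAs outside the family whose log2 CPM was most like that of miR-199a-3p were let-7b (r = 0.988), miR-335 (0.976), which lies in the imprinted gene MEST, and miR-125b-1-3p (0.973), an arm of a miR-125b hairpin. let-7b went from 357 ± 56.4 CPM in liver to 2128 ± 163 CPM in tongue, and miR-335 from 185 ± 60.7 to 2119.5 ± 272 CPM. Within the family r was 0.997 for miR-199c, 0.994 for miR-214-5p, 0.986 for miR-199a-5p, 0.983 for miR-214 and 0.923 for miR-199b. These values mostly follow the 4 tissue levels. After group means were removed, r within the family was 0.916 for miR-199c, 0.844 for miR-214-5p, 0.832 for miR-214, 0.767 for miR-199a-5p and 0.416 for miR-199b. The 3 most alike outside the family were miR-temp1-5p, an entry with a temporary name (0.699), let-7c (0.666) and let-7b (0.655). The libraries share totals and tissues, so these r are descriptions.

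Other miRNAs known from fibroblasts, smooth muscle, cartilage and mesenchyme were read as a list of 19 names. They include miR-143 and miR-145 of smooth muscle, miR-140 of cartilage, miR-21 of activated fibroblasts and miR-29, which targets collagens. In LOS liver 22 of 28 listed arms were higher and 6 lower (median 0.14), while 297 of all 563 miRNAs were higher (median 0.01). In edgeR 0 of the 28 passed, against 1.24% of all, and 9 stood at an unadjusted p under 0.05, against 14% of all. miR-503-3p, an arm from the miR-424 cluster, led: 5 controls averaged 13.1 ± 1.15 CPM and 4 LOS fetuses 17.9 ± 2.07 CPM (0.45 ± 0.12, adjusted p 0.0885 in edgeR, 0.0450 without LOS 2). miR-140 had the opposite sign (-0.14 ± 0.05), and miR-21-5p stood at 0.17 ± 0.06.

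In LOS kidney 12 of 28 listed arms were higher and 16 lower (median -0.02), while 225 of all 436 miRNAs were higher (median 0.01). In edgeR 0 were called (0% of all), and 5 stood at an unadjusted p under 0.05, against 7.57% of all. The leading 3 were all lower: miR-152 (83.6 ± 6.10 to 65.5 ± 5.39 CPM, -0.35 ± 0.10; called by DESeq2, adjusted p 0.0439), miR-145-3p (80.2 ± 16.7 to 55.6 ± 5.44 CPM, -0.53 ± 0.15) and miR-143-5p (-0.57 ± 0.20). In LOS muscle 15 of 26 were higher (median 0.02), while 207 of all 439 miRNAs were higher (median -0.01), with 0 called in edgeR (0% of all) and 1 at an unadjusted p under 0.05, against 13.2% of all. miR-145-3p differed by -0.27 ± 0.10, miR-21-3p by 0.48 ± 0.21 and miR-34c by 0.37 ± 0.18. In LOS tongue 22 of 26 were higher (median 0.07), while 251 of all 460 miRNAs were higher (median 0.01). In edgeR 0 were called (0% of all), and 1 stood at an unadjusted p under 0.05, miR-145 (0.29 ± 0.13), against 5.43% of all. Next came miR-140-5p (0.30 ± 0.17) and miR-140 (0.28 ± 0.18), whose LOS libraries varied widely (1497 ± 808 CPM).

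In ART liver against control 18 of 28 list arms were higher (median 0.03), while 289 of all 563 miRNAs were higher (median 0.00), with miR-140 (-0.12 ± 0.05) ahead of miR-455-3p (-0.40 ± 0.19) and miR-503-3p (0.23 ± 0.12). In LOS against ART liver 19 of 28 were higher (median 0.11), while 281 of all 563 miRNAs were higher (median 0.00), led by miR-29b (0.33 ± 0.12), miR-335 (0.52 ± 0.23) and miR-455-5p (0.29 ± 0.14). Neither comparison had a call in the list in edgeR (0 each, against 0% and 2.66% of all), with 1 of 28 at an unadjusted p under 0.05 for ART against control (8.17% of all) and 2 of 28 for LOS against ART (15.5% of all). DESeq2 and limma-voom called 0 of the list in muscle, liver and tongue. Their calls over all miRNAs are those given with each comparison above.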

How the data were processed

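The authors deposited 4 tables of raw read counts per mature miRNA and library, 1 per tissue. The submitters' processing notes name Bowtie with the build UMD3.1 for every tissue and cutadapt 1.18 for tongue, without a role. Which program counted the reads, how reads matching several miRNAs were handled and whether low miRNAs were dropped is not given in the sources used here. edgeR 4.0.16 (under R 4.3.3) gave the CPM of listed reads and the TMM factors (0.943 to 1.07). CPM in the text are TMM-scaled within a tissue in comparisons of groups, in sums of marker lists and in correlations within a tissue. They are unscaled where levels of single miRNAs are compared between tissues, in the correlations over all 45 libraries and where the text says so. Each comparison was fitted on its whole table with filterByExpr and edgeR's quasi-likelihood test, with Benjamini-Hochberg adjustment and a call at an adjusted p under 0.05. The 3 liver groups shared 1 fit. limma-voom (3.58.1) and DESeq2 (1.42.0, no independent filtering) were alternatives, with RLE factors, filters (none, or a mean CPM of at least 10), removal of the 3 most abundant miRNAs, and single libraries left out. SE is the size of the log2 difference over the root of F. The scripts were tested on simulated data.

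The entries and lists were chosen with earlier results of these data known. Named miRNAs outside the family are the 3 of lowest p in the list of each comparison, any called, and the 3 most alike by correlation. The closest pair of libraries in a group had a chi-square of 23.9 over its degrees of freedom, so none was counted as a repeat. The labels number the fetuses and do not state separate dams or sires, and p-values reflect only the spread among the labelled fetuses. The fetus block across tissues takes a number as 1 fetus: deviations from group means of the same number correlated at over 0.1 for 7 of 8 fetuses between kidney and liver and between kidney and muscle, for 5 of 8 between liver and muscle, and with tongue for 7 of 8 in kidney, 5 of 8 in muscle and 4 of 8 in liver (lowest r -0.438). By these counts support for the shared number was as weak for liver as for tongue, and weakest between liver and tongue. No file used here holds the mature sequences, so none are printed.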

Additional observations from a re-analysis of the deposited data

Results flagged for a closer look

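The LOS effect on miR-199b differed between liver and muscle by 0.79 ± 0.20 on the log2 scale (liver minus muscle, adjusted p 0.0438 in edgeR). It is listed here because the difference between the tissues itself passed. The entries had been proposed for LOS effects of opposite sign in these data, so this p-value is not independent of that choice. Liver stood at 818, 567, 475 and 605 CPM in control 1 to 4 and 639, 614, 887 and 787 CPM in LOS. Muscle stood at 1509, 1335, 1278 and 1485 CPM in controls and 1182, 928, 1003 and 835 CPM in LOS. The call was lost without control 2, control 3, control 4, LOS 3 or LOS 4 (adjusted p 0.108 to 0.141 in edgeR). With a mean CPM of at least 10 it was lost too (adjusted p 0.0544 in edgeR). In neither tissue alone did miR-199b pass in edgeR.

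In tongue, control 9 was far below the other controls in 2 entries. miR-199a-3p was at 19070.1 CPM there against 22112 to 24512 CPM in the other 8 controls, and miR-199c at 406 CPM against 469.9 to 532 CPM. Of 81 groups of values examined in this way 2 had a library that far out, and chance alone gives about 1 in 20.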

How the results depend on the processing

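Counts of called entries held at 0 of 6 in the 6 group comparisons under RLE factors, limma-voom, both filters, removal of abundant miRNAs and every left-out library. DESeq2 alone gave 1 call in kidney and 1 in muscle, and 1 call of the mesenchymal list in kidney. That list had 0 to 1 calls in LOS liver when single libraries were left out. The replicate block within a tissue, where numbers name different fetuses and deviations of same numbers correlated at -0.357 to 0.281, gave 0 calls of the 6 in each comparison. Without the fetus block (no replicate block) the difference of miR-199b between liver and muscle was 0.78 (adjusted p 0.0273 in edgeR), and the tissue levels had 32 calls. The liver and muscle difference had 0 calls with a mean CPM of at least 10 (miR-199b adjusted p 0.0544 in edgeR), and 0 to 2 calls when single fetuses were left out. The joint test had 0 to 2 calls when single fetuses were left out. The causes were not tested.

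Signs that turned belonged to values that had not passed a test. With a mean CPM of at least 10, miR-214 in kidney was at -0.0063 and miR-199a-3p in tongue at 0.000352. With limma-voom, ART minus control was 0.0090 for miR-199a-3p, 0.0091 for miR-199c and 0.0060 for miR-214. With the replicate block, miR-214-5p was at -0.018 in ART liver and miR-214 at -0.0082 in tongue. In tongue males miR-199a-3p was at 0.056 and miR-214 at -0.051. In females miR-199b was at -0.067, its ratio to miR-199a-5p at -0.081, and with fetuses 1 to 4 only miR-199b was at -0.063. In LOS fetuses miR-199b was at 0.034 (kidney minus muscle), and without TMM factors its r with miR-199a-3p in muscle was -0.091.

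When single libraries were left out, miR-199c ranged from -0.19 to -0.065, miR-214 from -0.044 to 0.081 and miR-214-5p from -0.10 to 0.0096 in kidney, miR-214-5p from -0.17 to 0.055 in muscle, and miR-199a-3p from -0.045 to 0.014 and miR-214 from -0.019 to 0.045 in tongue, where miR-199b ranged from 0.019 to 0.13, miR-199a-5p from 0.029 to 0.081 and miR-199c from 0.0055 to 0.064. In ART liver miR-199a-3p ranged from -0.14 to 0.079, miR-199a-5p from 0.081 to 0.37, miR-199b from 0.15 to 0.40, miR-199c from -0.13 to 0.091, miR-214 from -0.16 to 0.076 and miR-214-5p from -0.13 to 0.24, and miR-199b in LOS against ART from -0.14 to 0.086. Muscle minus kidney ranged from -0.012 to 0.23 for miR-199a-5p, -0.046 to 0.12 for miR-214 and -0.13 to 0.052 for miR-214-5p. The log2 ratio of miR-199a arms ranged from -0.019 to 0.074 in muscle and -0.028 to 0.10 in LOS liver, that of miR-199b to miR-199a-5p from -0.0052 to 0.052 in tongue, and that of miR-214 to miR-199a-3p from -0.066 to 0.041 in ART liver and -0.012 to 0.071 in tongue.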
